A study of Mus musculus with 168 samples.

Results

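The libraries described here are cortex polyA RNA libraries from mice aged 6 months that carried 1 knock-in allele of the huntingtin gene (Htt), 8 with the Q92 allele and 8 with the Q20 allele. They are 16 of the 168 libraries of the series. The series also has Q80, Q111, Q140, Q175 and wild-type mice at the same ages. The libraries were chosen by the genotype and the age in their labels, with no measured value used. Both groups were heterozygous knock-ins on C57BL/6, and each had 4 females and 4 males. The Q92 mice were housed with other Q92 mice and the Q20 mice with other Q20 mice. The number that opens each library name also formed a separate block for each allele, so that allele, housing and whatever that number marks cannot be told apart. The labels do not say whether each library is a separate animal, so the p-values measure the spread between these libraries. All 12 glutamatergic neuron markers on the list for this tissue passed the filter on low counts. The deposited estimated counts summed to 33835811 to 47353341 per library. The comparison asks what differs in the cortex when the CAG repeat of 1 Htt copy is expanded rather than in the normal range. The Q92 repeat is of intermediate length only among the alleles of this series.

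Htt encodes huntingtin, a large scaffold protein that most cells make. Its first exon holds a CAG repeat that is read as a run of glutamines, and a long repeat in 1 copy of the human gene causes Huntington's disease. Striatal projection neurons and the cortical neurons that project to them are the cells most affected in the disease. In knock-in mice the expression of striatal identity genes is known to fall with repeat length and age, and the cortex is known to change less.

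The repeat that the 2 alleles alter is given here as the mouse reference has it, because it is the designed difference between the groups. The stretch is the first 120 coding bases of Htt in exon 1, on the plus strand, at chr5:34761907-34762026 of GRCm38 (GENCODE M21). The capitals mark its longest unbroken CAG run, which has 4 units in the reference. The knock-in alleles themselves are not in the files and are not shown.
Htt: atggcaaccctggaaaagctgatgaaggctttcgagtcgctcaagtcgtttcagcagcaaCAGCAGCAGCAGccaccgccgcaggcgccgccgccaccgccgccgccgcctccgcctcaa

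Htt (ENSMUSG00000029104, chr5:34761740-34912534, plus strand) was measured from 213 to 242 CPM (read counts scaled to a common library size) in Q92 cortex, with a median of 230, against 191 to 222 CPM, median 215, in Q20 cortex. Most Q92 libraries lay above the Q20 range, but the ranges overlapped. The log2 difference of 0.12 ± 0.04 (standard error) did not pass in edgeR's quasi-likelihood test with Benjamini-Hochberg adjustment over all genes (adjusted p = 0.13). On the values taken as FPKM, Htt averaged 9618.4 in Q92 and 8162 in Q20. These are the means of its estimated counts, not scaled by library size. Their log2 difference was 0.24 (adjusted p = 0.0345 in limma), on a scale where the median of all genes was itself 0.11 higher in Q92. That value is therefore not a second scaled measure of Htt. Htt means at 6 months were 228 ± 10.3 CPM in Q92, 228 ± 5.22 in Q80, 209 ± 9.25 in Q111, 186 ± 6.78 in Q140, 155 ± 16.1 in Q175 and 209 ± 11.7 in Q20 (SD, n = 8 each). The counts cannot separate the knock-in copy from the wild-type copy. Of 120 tested genes that start within 5 Mb of the start of Htt, Htt included, none was called in either direction. Their median log2 difference was -0.01, against -0.002 over all genes.

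Across 17611 tested genes, 142 were higher and 28 were lower in Q92 than in Q20 cortex at an adjusted p under 0.05 (edgeR quasi-likelihood test with sex as a covariate, all 56 libraries of that age in the fit). That is 0.965% of the genes tested, with 0.806% called higher and 0.159% called lower. A list of 100 transcripts made chiefly by liver, 85 of them tested, held 75 of the genes called higher. Another 71 genes were grouped with them as liver-linked, because their log2 CPM had a correlation of at least 0.7 with the summed liver list over those 56 libraries, and 63 of these were called higher. That grouping used the libraries compared here, so no test is drawn from its count. The remaining 17455 genes held 4 genes called higher (0.0229%) and 28 called lower (0.16%). The 2 classes are described in turn.

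The liver secretes most plasma proteins, makes urea from ammonia, and oxidises drugs and steroids with cytochromes P450. In cortex the transcripts of these hepatocyte genes are normally nearly absent. Alb (ENSMUSG00000029368, chr5:90460897-90476602, plus strand) encodes serum albumin, the main plasma protein. It was measured from 15.1 to 82 CPM in Q92 cortex, with a median of 48.6, against 0 to 5.26 CPM, median 0.0388, in Q20 cortex. Every Q92 library lay above every Q20 library, and the value of 5.26 came from 1 Q20 library, male 2, with all other Q20 libraries under 0.1 CPM. The fitted log2 difference was 6.10 ± 0.82 (adjusted p = 6.8e-07), a size that for genes near 0 in Q20 depends on the prior count of the fit.

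The 85 tested genes of the liver list summed to 65.6 to 325 CPM in Q92 cortex, with a median of 195, against 20.9 to 38.8 CPM, median 23.4, in Q20 cortex. The lowest Q92 library was male 2 and the highest male 4, and the highest Q20 library was male 2. At 2 months the same genes summed to 17.9 to 23.1 CPM in Q92 and 18 to 23.2 CPM in Q20, and at 10 months to 15.4 to 24.4 CPM in Q92 and 17.2 to 21.8 CPM in Q20. The excess in Q92 cortex was present at 6 months and was not seen at either other age. The library names of 2 and 10 months follow another scheme than those of the knock-in libraries of 6 months. Age and that difference cannot be told apart. At 6 months liver transcripts were also high in Q140 libraries, at 78.4 to 850 CPM, and wild-type libraries ran from 18.7 to 80.7 CPM, with 3 of 8 at 75.6 CPM or more and the others at 25.3 CPM or less.

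**Figure D1:**
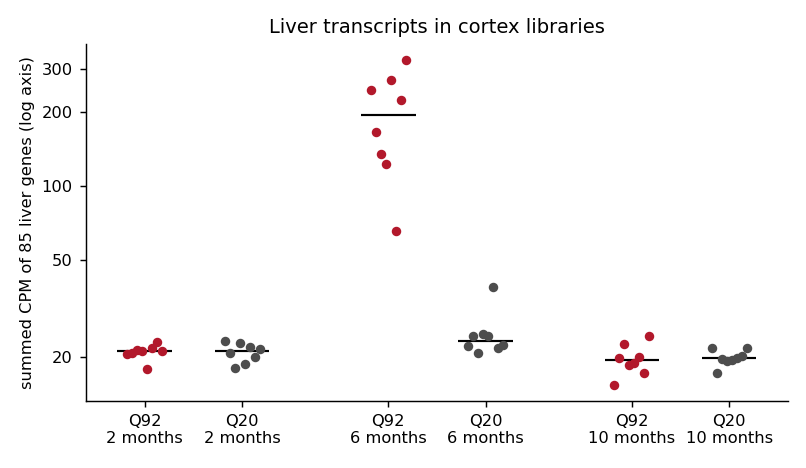
Summed CPM of the 85 tested liver genes (vertical log axis) in each library of Q92 and Q20 cortex at 2, 6 and 10 months; points are libraries and bars are medians. The 8 Q92 libraries of 6 months sit between 65.6 and 325 CPM, all above the Q20 libraries of that age, while the other groups lie near 20 CPM.

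Many liver genes passed the filter on low counts only through libraries where they are high, so that the tested ones were bound to differ. Of the 75 listed genes called at 6 months, 13 passed it at 2 months and 11 at 10 months. The counts by role are therefore descriptions. On the liver list, 16 of 17 tested plasma carriers and protease inhibitors were called higher. Ahsg, which encodes the plasma glycoprotein fetuin-A, was measured from 1.21 to 7.51 CPM in Q92 cortex (median 4.57) against 0 to 0.497 CPM (median 0.0121) in Q20 cortex, without overlap. Listed clotting and fibrinolysis genes were called higher for 10 of 12, and fibrinogen beta (Fgb) had 0.726 to 3.997 CPM in Q92 against 0 to 0.213 CPM in Q20. Of 23 tested genes with an Apo symbol, on the list or not, 8 were called higher and 7 were below 0. Of the complement genes, the liver-linked C3, the central component of the cascade, had 2.73 to 8.90 CPM in Q92 (median 5.36) against 0.434 to 1.33 CPM (median 0.618) in Q20. C3 is also on the reactive gliosis list, where no other member of 20 was called and Gfap, the astrocyte filament protein, had a log2 difference of -0.08 (adjusted p = 0.712).

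Listed urea cycle and amino acid genes were called higher for 10 of 11. Cps1, the first enzyme of the urea cycle, was measured from 1.57 to 7.65 CPM in Q92 cortex (median 4.20) against 0.266 to 0.61 CPM (median 0.434) in Q20 cortex, a log2 difference of 3.21 ± 0.35 (adjusted p = 4.3e-08). Gnmt, which methylates glycine and so uses up S-adenosylmethionine, had 0.884 to 2.46 CPM in Q92 against 0.265 to 0.677 CPM in Q20. Of 50 tested genes with a Cyp symbol, on the list or not, 20 were called higher and 16 were below 0, and their median log2 difference was 0.09. Of 16 carboxylesterases and UDP-glucuronosyltransferases by symbol, 10 were called higher and 3 were below 0. The bile salt export pump Abcb11 had 0.203 to 0.755 CPM in Q92 against 0 to 0.0711 CPM in Q20. Hnf4a, a transcription factor of hepatocytes, had 0.194 to 0.707 CPM in Q92 against 0 to 0.0241 CPM in Q20. Hamp, the iron hormone hepcidin, had 0.169 to 0.66 CPM in Q92 against 0 to 0.0474 CPM in Q20. None of these genes overlapped between the groups; over all 17611 tested genes 0.551% did not overlap.

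The major urinary proteins (Mup) are pheromone carriers that mouse liver secretes. Their 13 tested genes were called higher, as the filter on low counts would favour. Mup7 was measured from 0 to 18.7 CPM in Q92 cortex (median 5.44) against 0 to 0.379 CPM (median 0) in Q20 cortex. Mup20, known as darcin, had 0 to 7.14 CPM in Q92 (median 3.21) against 0 to 0.118 CPM (median 0) in Q20. The Mup, Serpina1, Ugt, Ces and Cyp2 families are near-identical copies that share reads, so the level of any 1 copy is uncertain. The ranges of Mup7 and Mup20 overlapped because Q92 male 2 had none, although the same library had 15.1 CPM of Alb.

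Several liver genes are known to be made mainly in male or mainly in female mouse liver, and the Q92 libraries differed in which of these they held. The 2 lists, drawn up after the values were seen, have 8 male-type genes (Mup7, Mup20, Cyp2d9, Serpina1e, Cyp4a12a, Hsd3b5, Elovl3 and Slco1a1) and 7 female-type genes (Cyp2b9, Cyp2b13, Cyp3a41a, Cyp2a4, Cyp2c40, Cyp2c69 and Sult3a1). Q92 male 2 had 0 counts of the male-type genes and 24 counts of the female-type genes, against 622 Alb counts. Q92 male 4 had 1756 male-type and 2 female-type counts, and Q92 female 2 had 831 male-type and 1 female-type count. The other 5 libraries held both kinds. The male-type genes came to 37.2, 19.4 and 20.9 counts per 100 Alb counts in females 1, 3 and 4, and to 17 and 22.7 in males 1 and 3. The female-type genes came to 1.18, 0.623 and 0.914 per 100 Alb counts in females 1, 3 and 4, and to 2.3 and 2.22 in males 1 and 3. Of the Q20 libraries, male 2 had 39 male-type and 11 female-type counts, and no other Q20 library had more than 5 of either.

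**Figure D2:**
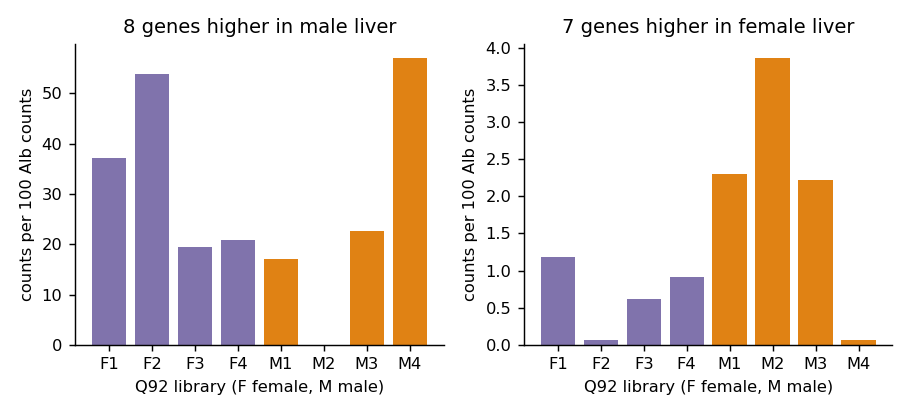
Counts of 8 male-type liver genes (left) and 7 female-type liver genes (right) per 100 Alb counts in each Q92 library of 6 months; purple bars are female and orange bars male mice, and both vertical axes start at 0. Male 2 has no male-type counts, while female 2 and male 4 have nearly no female-type counts.

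The start regions of 4 liver genes are shown because they hold the half-site GTTAAT, which is part of the known binding sequence of the hepatocyte factor HNF1. Each is the 60 bases before the annotated start, from RefSeq on GRCm38.p6, with GTTAAT in capitals: Alb at chr5:90460810-90460869 (plus strand), Serpina1c at chr12:103904951-103905010 (minus), Gc, which encodes the vitamin D carrier, at chr5:89457899-89457958 (minus) and Serpina1a at chr12:103863620-103863679 (minus).
Alb: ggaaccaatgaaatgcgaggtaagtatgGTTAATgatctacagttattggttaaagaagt
Serpina1c: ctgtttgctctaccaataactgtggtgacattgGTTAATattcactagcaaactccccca
Gc: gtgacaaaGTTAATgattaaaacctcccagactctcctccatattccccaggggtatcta
Serpina1a: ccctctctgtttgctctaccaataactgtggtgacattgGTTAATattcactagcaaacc
GTTAAT was searched on both strands in the window from 250 bases before to 50 after each start. It was found for 27 of the 105 genes of the 2 liver sets called higher that have a window in RefSeq (25.7%), against 523 of 12674 other tested genes (4.13%) and 1946 of all 27025 windows (7.2%). The liver sets were chosen as liver genes or by correlation with them, so a higher share was favoured in advance. It is not a result about Q92 against Q20. Near-identical copies such as Serpina1a and Serpina1c were counted as separate genes. A match describes these letters and is not a bound site.

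Outside the liver sets, 28 genes were lower in Q92 cortex, and their differences were small. The median log2 difference was -0.22, and the folds ran from 0.358 to 0.914. The ranges of Q92 and Q20 overlapped for all but Lgals4. Among all 17455 genes outside the liver sets, 0.0516% did not overlap.

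Of 81 tested genes for cytosolic ribosomal proteins, 5 were called lower (Rpl13, Rpl38, Rpl36, Rpl41 and Rplp2) and none higher. Of the 81, 76 (93.8%) had a log2 difference below 0, with a median of -0.06, against 51.7% of all genes outside the liver sets, with a median of -0.003, and 70.5% of those in the shortest of 5 bins by transcript length, with a median of -0.04. Rpl38, a protein of the large subunit, was measured from 86.4 to 97.2 CPM in Q92 cortex (median 93.2) against 93.3 to 108 CPM (median 101) in Q20 cortex, a log2 difference of -0.13 ± 0.03 (adjusted p = 0.0166). Rpl36 had 52.4 to 62.4 CPM in Q92 (median 57.6) against 60.8 to 70.5 CPM (median 64.4) in Q20. Rplp2, an acidic protein of the ribosomal stalk, had 70.7 to 86 CPM in Q92 (median 76.9) against 79.2 to 94.6 CPM (median 84.4) in Q20. In each case most Q92 libraries lay under most Q20 libraries. Rpl13 had the largest difference of the 5, with 99.9 to 148 CPM in Q92 (median 122) against 133 to 178 CPM (median 145) in Q20, a log2 difference of -0.30 ± 0.07 (adjusted p = 0.00465). Rpl41, which encodes a very short protein, had 191 to 242 CPM in Q92 (median 218) against 220 to 257 CPM (median 243) in Q20. Ribosomal protein genes have many near-identical pseudogenes, so reads may be split between copies.

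Messages for ribosomal proteins typically start with a run of C and T that links their translation to growth signals. It is shown for 2 of the 5 as 20 bases before and 10 from the RefSeq start on GRCm38.p6, with the run from the start in capitals: Rpl38 at chr11:114668560-114668589 and Rplp2 at chr7:141447631-141447660, both on the plus strand.
Rpl38: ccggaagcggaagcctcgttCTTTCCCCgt
Rplp2: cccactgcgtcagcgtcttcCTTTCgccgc

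Among nuclear genes of mitochondria, 61 of 77 mitochondrial ribosomal protein genes (79.2%) were below 0 and Mrpl53 was called lower, with 12.9 to 15.3 CPM in Q92 (median 13.7) against 13.8 to 17 CPM (median 15.8) in Q20. Of 74 genes named for subunits or assembly factors of respiratory complexes I, III and IV, 64 (86.5%) were below 0 and Uqcr10 and Uqcc2 were called lower. Beside these stand 51.7% below 0 among all genes outside the liver sets and 70.5% in the shortest length bin. Of all genes outside the liver sets 0.16% were called lower. The part of transcript length in the shares of these mitochondrial genes was not tested. The separate list of 26 nuclear respiratory chain genes held no called gene, and its median log2 difference was -0.03. Uqcr10, a subunit of complex III, had 50.5 to 59.3 CPM in Q92 (median 55.2) against 55.8 to 62.9 CPM (median 60.9) in Q20, a log2 difference of -0.13 ± 0.03 (adjusted p = 0.0186). Uqcc2, which helps to assemble complex III, had 43.3 to 48.7 CPM in Q92 (median 46.6) against 48 to 54.5 CPM (median 50) in Q20. Romo1, a small protein of the inner membrane, had 15.2 to 19.3 CPM in Q92 (median 16.3) against 17.8 to 22.1 CPM (median 19.1) in Q20. The 13 transcripts of the mitochondrial genome held no called gene, and their median log2 difference was 0.02.

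The remaining lower genes had varied roles. Snrnp35, a protein of the minor spliceosome, had the smallest p of the 28 after Gm26917, with 5.87 to 8.23 CPM in Q92 (median 6.56) against 7.31 to 8.34 CPM (median 7.96) in Q20 and a log2 difference of -0.22 ± 0.05 (adjusted p = 0.00316). Pigyl, which is named for the synthesis of lipid anchors of surface proteins, had 11.3 to 13.4 CPM in Q92 (median 12) against 13.1 to 16 CPM (median 14) in Q20. Erf, a repressor of the ETS family, had 35.3 to 47.8 CPM in Q92 (median 39.6) against 42.2 to 52.3 CPM (median 46.5) in Q20. Lgals4, a galectin known from gut epithelium, had 2.30 to 2.78 CPM in Q92 (median 2.53) against 2.92 to 3.50 CPM (median 3.14) in Q20, and was the only called gene of the 28 whose ranges were apart. Gng13, a G protein gamma subunit, had 10.8 to 13.8 CPM in Q92 (median 11.9) against 12.5 to 16 CPM (median 14.2) in Q20. C2cd4b had the lowest fold but was barely detected, with 0.0242 to 0.146 CPM in Q92 (median 0.0947) against 0.145 to 0.547 CPM (median 0.212) in Q20. The other 10 called lower were Znhit1, Lpcat3, Gp1bb, Col26a1, Mmgt2, Tmem258, Snhg6, Rhog, Gm10774 and AI847159. Their log2 differences ran from -0.80 for AI847159, an antisense model counted without stated use of strand, to -0.13 for Lpcat3.

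A pair of lower gene models, Gm42418 and Gm26917 on chromosome 17, overlap sequence of the 45S ribosomal RNA precursor, which polyA selection is meant to remove. Gm42418 (chr17:39846958-39848788, plus strand) was measured from 416 to 649 CPM in Q92 cortex (median 480) against 528.1 to 867 CPM (median 712.2) in Q20 cortex, a log2 difference of -0.57 ± 0.13 (adjusted p = 0.0124). Gm26917 had 0.181 to 0.755 CPM in Q92 (median 0.305) against 0.482 to 1.39 CPM (median 0.864) in Q20. Lars2, the mitochondrial leucyl-tRNA synthetase, was lower as well, with 114 to 157 CPM in Q92 (median 138) against 147 to 209 CPM (median 188) in Q20. The part of ribosomal RNA carry-over in the other differences was not tested.

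**Figure D3:**
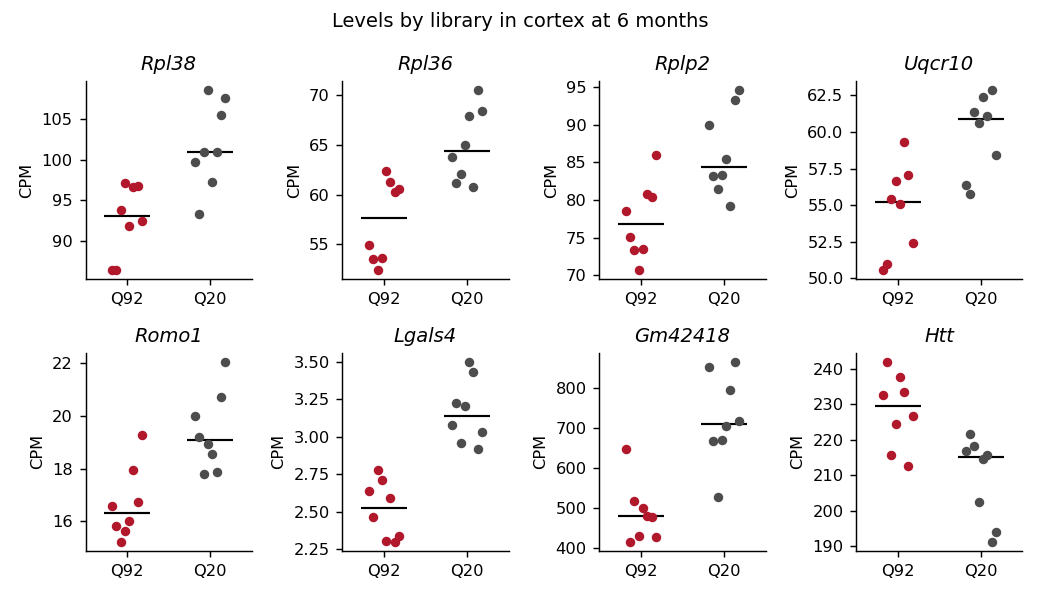
CPM (vertical axes, which do not start at 0) of 7 genes called lower in Q92 and of Htt in each library of 6 months; points are libraries and bars are medians. The Q92 medians of Rpl38, Rpl36, Rplp2, Uqcr10, Romo1, Lgals4 and Gm42418 lie under the Q20 medians, only Lgals4 shows no overlap, and Htt, which did not pass the test, has the higher Q92 median.

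The lower genes also shared a property that the test did not use, the length of their transcripts. The longest annotated transcript of the 28 had a median of 1103.5 bases, against 3192 bases over the other tested genes with a length. When those genes were split into 5 bins by that length, the median log2 difference ran from -0.04 in the shortest bin through -0.02, -0.003 and 0.01 to 0.02 in the longest. Of the 28 lower genes, 19 were in the shortest bin and none in the longest. With a per-library trend on length taken out, a setting chosen after seeing the data, 11 genes outside the liver sets were lower, and 10 of the 28 kept their call.

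**Figure D4:**
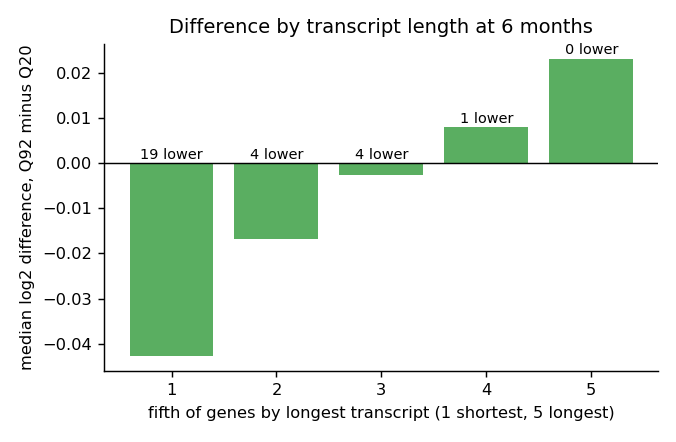
Median log2 difference, Q92 minus Q20, of genes outside the liver sets at 6 months (vertical axis) in 5 bins of genes by longest transcript (horizontal axis, shortest at left); labels give the number of genes called lower in each bin. The medians run from -0.04 in the shortest bin to 0.02 in the longest, and 19 of the 28 lower genes are in the shortest.

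The 28 calls depended on the libraries. Without Q92 female 2, Q92 female 4, Q20 male 4 or Q20 male 2, the count of lower genes was 14, 17, 15 or 47. With any 1 of the 16 libraries left out, 13 to 23 of the 28 kept their call and all 28 stayed below 0. In a fit of only the Q92 and Q20 libraries 9 of 27 kept it. On the values taken as FPKM 1 or 2 of 28 did, by pseudocount and filter. Those values were not scaled by library size, and on them the median of all genes was higher in Q92. With the replicate number as a block 74 genes outside the liver sets were lower, and by DESeq2 50 were, and both counts held all 28. With only females, 34 genes outside the liver sets were lower, and with only males, none was (4 libraries a group in each). The difference between the sexes was itself tested and gave 0 of 17611 genes at an adjusted p under 0.05 (764 at an unadjusted p under 0.05). With the liver sum as a covariate, whose ranges in the 2 alleles do not overlap, no gene of any class was called. All 28 lower genes had a correlation below 0 with the liver sum over the 56 libraries, from -0.56 to -0.04. These correlations are descriptions over libraries that include the 16 compared. The 28 genes were chosen as low in Q92, whose liver sums were high, so a correlation below 0 was favoured in advance.

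Of the 4 genes called higher outside the liver sets, the largest difference was that of Mst1 (chr9:108080436-108085003, plus strand), which encodes a growth factor that liver secretes. Mst1 had 0.0488 to 0.475 CPM in Q92 cortex (median 0.185) against 0 to 0.109 CPM (median 0.0502) in Q20 cortex. Its log2 difference was 2.15 ± 0.45 (adjusted p = 0.00223 in edgeR). Its correlation with the liver sum was 0.641, just under the limit for a liver-linked gene. With 14 counts over the 8 Q20 libraries, Mst1 passed the filter on low counts through other libraries, so its difference was favoured in advance. Smc2, a condensin subunit, had 10 to 12 CPM in Q92 (median 11.2) against 9.09 to 10.6 CPM (median 9.47) in Q20. Hist4h4, a histone H4 gene, had 0.242 to 0.586 CPM in Q92 (median 0.305) against 0.107 to 0.289 CPM (median 0.155) in Q20. Gpr155, a membrane protein of the lysosome, had 58.9 to 63.9 CPM in Q92 (median 61.7) against 54 to 59.7 CPM (median 57.7) in Q20. All 4 overlapped. The count of 4 became 7, 12, 8, 7, 10 or 7 without Q92 female 1, female 3, female 4, male 1, male 2 or male 4. It became 14, 7, 7, 9 or 10 without Q20 female 3, female 4, male 1, male 2 or male 3.

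The other 37 gene lists, of neuron and glia types, signalling and stress, held 3 called genes in all, and 2 of these (C3 and Tdo2) were liver-linked while the third was Rpl38. No member of the lists for glutamatergic neurons (12 tested), upper layers (12), deep layers (13), interneurons (21), astrocytes (16), oligodendrocytes (18), microglia (20) or endothelial cells and pericytes (15) was called. Their median log2 differences lay between -0.09 and 0.01. All 18 oligodendrocyte markers were below 0, from -0.16 to -0.02 with a median of -0.08. The leading interneuron gene was Dlx1, a transcription factor of interneurons, with 33.8 to 44.5 CPM in Q92 (median 42.5) against 42.6 to 56.9 CPM (median 49) in Q20 and a log2 difference of -0.25 ± 0.07 (adjusted p = 0.0807).

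Genes that are known to fall in Huntington's disease striatum were also tested in this cortex. None of 21 striatal projection neuron markers was called, and their median log2 difference was -0.07. Penk, the enkephalin precursor, had a median of 106 CPM in Q92 and 122 CPM in Q20, with a log2 difference of -0.23 ± 0.13 (adjusted p = 0.553). None of 44 potassium channel genes was called. Kcnq3, a subunit of the M current, had 199 to 238 CPM in Q92 (median 211) against 176 to 212 CPM (median 192) in Q20, a log2 difference of 0.14 ± 0.04 (adjusted p = 0.0733). The 10 mismatch repair and repeat instability genes, some of which modify repeat expansion, had differences from -0.08 to 0.06 with none called, and Msh3 stood at 0.06 ± 0.04 (adjusted p = 0.621).

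Among responses of neurons to activity, none of 24 immediate early genes was called, with a median log2 difference of -0.22 and a highest of 0.01. Egr4 had 7.08 to 17.1 CPM in Q92 (median 10.3) against 11.7 to 23.6 CPM (median 16.8) in Q20, a log2 difference of -0.66 ± 0.19 (adjusted p = 0.0907). Junb had 27.1 to 61.3 CPM in Q92 (median 35.9) against 38.1 to 77.3 CPM (median 51.1) in Q20 (adjusted p = 0.32). None of 17 clock genes was called. Tef, a clock-controlled transcription factor, had 407 to 481 CPM in Q92 (median 457) against 370 to 483 CPM (median 419) in Q20 (adjusted p = 0.0558), and Per3 a log2 difference of 0.15 ± 0.04 (adjusted p = 0.0807). Of the 24 stress response genes Atf5 came nearest, at -0.20 ± 0.05 (adjusted p = 0.0649).

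Choroid plexus, the epithelium that makes cerebrospinal fluid, left its markers in a pair of Q20 libraries. The 13 tested markers summed to 21.3 to 44.9 CPM in Q92 cortex, and to 1043 and 871 CPM in Q20 female 2 and male 2, against 19 to 44 CPM in the other 6 Q20 libraries. Ttr, the thyroid hormone carrier of choroid plexus and liver, had 9.49 to 23.9 CPM in Q92 (median 15.8) against 6.66 to 912 CPM (median 13.6) in Q20. No choroid marker was called, although the median log2 difference of the list was -1.69. Without these 2 Q20 libraries, a setting chosen after seeing the data, 19 genes outside the liver sets were higher and 57 lower, and 23 of the 28 lower genes kept their call. Of 7 blood markers tested none was called, and their log2 differences ran from -0.62 for S100a9 (adjusted p = 0.67), a neutrophil protein, to 0.10 for Hba-a1, an alpha globin.

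The same alleles were compared at 2 and 10 months in other libraries. Their names follow another scheme, in which the numbers of the alleles are interleaved rather than in separate blocks. Age and that difference between the libraries cannot be told apart. At 10 months no gene of 17219 was called (0%, with 893 at an unadjusted p under 0.05 in edgeR). At 2 months Drc1 was called higher (0.00582% of genes tested). Rec8, Postn, Nyx and 1700012B09Rik were called lower (0.0233%), 0.0291% in all. None of these 5 genes was called at 6 months. Drc1 is one of the genes that start within 5 Mb of Htt. Its log2 difference was 0.28 ± 0.05 at 2 months and 0.17 ± 0.05 at 6 months (adjusted p = 0.101 in edgeR). Of the 28 genes lower at 6 months, 22 of 28 tested were above 0 at 2 months, with a median log2 difference of 0.09, and 24 of 27 were above 0 at 10 months, with a median of 0.06. None was called at either age. The medians over all genes were -0.0007 at 2 months and 0.0002 at 10 months. Rpl38 had log2 differences of 0.18 at 2 months and 0.04 at 10 months, Uqcr10 0.14 and 0.04, and Gm42418 0.25 and -0.04. A single Q92 library stood high at each age. The ribosomal protein list summed to 6613 CPM in Q92 male 3 of 2 months (Q92 median 4347, highest Q20 library 4614). In Q92 male 2 of 10 months it summed to 5250 CPM (Q92 median 4404, highest Q20 library 4932). The part of these libraries in the signs at 2 and 10 months was not tested.

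**Figure D5:**
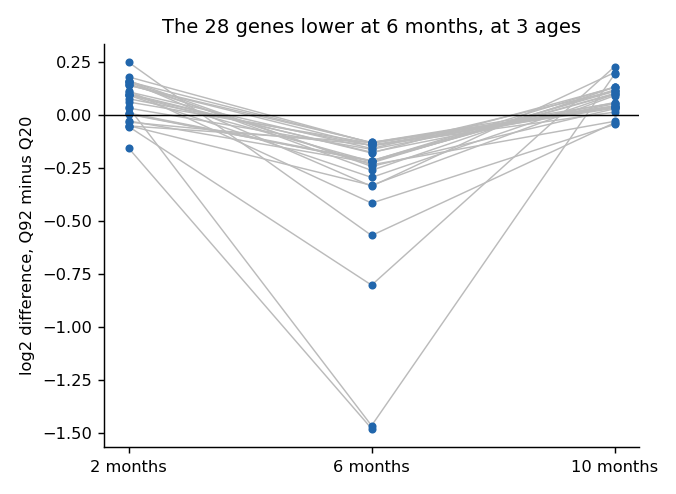
Log2 difference, Q92 minus Q20 (vertical axis), at 2, 6 and 10 months for the 28 genes called lower at 6 months; each line is 1 gene, and C2cd4b was not tested at 10 months. All points of 6 months lie below 0 because the genes were chosen there, while 22 of 28 at 2 months and 24 of 27 at 10 months lie above 0.

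Whether the Q92 to Q20 difference itself differed between ages was tested in the 48 libraries of the 2 alleles. Here too, age cannot be told apart from the scheme of the library names. Between 6 and 10 months it was called for 55 of 17304 genes (0.318%), 47 higher at 6 months (0.272%) and 8 lower (0.0462%). Of these, 9 of the higher and all 8 lower genes were outside the liver sets. The liver genes led the higher ones, with Cps1 at 3.55 ± 0.34 (adjusted p = 4.31e-09). Outside the liver sets, Egr4 gave a log2 difference of differences of -1.32 ± 0.28 (adjusted p = 0.013 in edgeR), Pdlim4 -0.39 ± 0.09 (adjusted p = 0.0249), Csf2ra -0.41 ± 0.09 (adjusted p = 0.0275) and Atf5 -0.32 ± 0.08 (adjusted p = 0.037), each with a Q92 to Q20 difference below 0 at 6 months and above 0 at 10 months. None of these 4 genes was called at 6 months alone. Between 6 and 2 months 22 genes were called, all higher at 6 months (0.127%), and none was outside the liver sets. Of the 28 lower genes, only Gm26917 passed the test against 10 months and none passed that against 2 months.

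The Q80 allele, nearest to Q92 in length, served as another comparison, which shares the Q92 libraries. Against Q80, 174 genes were higher (0.988%) and 14 lower (0.0795%) in Q92, 1.07% in all, of which 34 and 14 were outside the liver sets. Per3 averaged 82.9 ± 8.13 CPM in Q92 and 72 ± 5.28 CPM in Q80 (SD, n = 8 each), a log2 difference of 0.20 ± 0.04 (adjusted p = 0.00145 in edgeR). Tef averaged 451 ± 25.9 CPM in Q92 and 401 ± 19.6 CPM in Q80, a log2 difference of 0.17 ± 0.03 (adjusted p = 0.000211 in edgeR). Gmeb1 was lower, at 21.5 ± 0.648 CPM in Q92 and 23.4 ± 1.30 CPM in Q80 (adjusted p = 0.00184 in edgeR), and so was Rbm45, an RNA-binding protein, at 20 ± 1.72 CPM in Q92 and 22 ± 0.974 CPM in Q80 (adjusted p = 0.00501 in edgeR). The 28 genes lower than in Q20 had a median log2 difference of -0.13 from Q80, with 2 called. By mean CPM Q92 was the lowest of the 6 knock-in alleles for 27 of them and Q20 the highest for 10. The 28 were chosen because these same Q92 libraries were low against Q20, so low Q92 ranks were favoured in advance. These values are descriptions only. Against wild type, 5109 genes were called (29%), but the wild-type library names follow another scheme, so genotype and that difference cannot be told apart.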

How the data were processed

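Cortex polyA RNA was sequenced on Illumina instruments, per the labels, with CASAVA 1.8.2 named in the submitters' processing notes. The aligner, counter and genome build were not given in the sources used here. The authors deposited estimated counts per gene, of which 17.7% were not whole, and values taken here as FPKM. For Htt, Alb, Cps1, Gnmt and C3 the group means of the latter were those of the estimated counts, not scaled by library size. Settings named FPKM here are therefore not a scaled measure. The estimated counts were rounded, and gene IDs were matched to GENCODE M21 (37607 of 39179 have a symbol there), which also gave positions and transcript lengths. Gene IDs without a symbol held at most 0.329% of the counts of a Q92 or Q20 library of 6 months.

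Genes passed filterByExpr (minimum count 10, total 15). CPM is scaled by TMM. Differences come from edgeR 4.0.16 in R 4.3.3 (quasi-likelihood F test, Benjamini-Hochberg adjustment, threshold 0.05), fitted on the 56 libraries of 6 months with genotype and sex. Age differences used 48 libraries. The standard error is the log2 difference divided by the square root of F. DESeq2 1.42.0 and limma 3.58.1 served as alternatives. The fits were tested on simulated data.

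Named genes were Htt, the called genes with the smallest p or largest difference, and the leading members of each list. All called genes outside the liver sets and some liver genes were added after their values were seen. The members, lists and rules were chosen with earlier results of these data known. Of 56 pairs of libraries within an allele, none agreed within sampling noise (chi-square per degree of freedom at least 4.06).

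A few genes are not reported here.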

Additional observations from a re-analysis of the deposited data

Results flagged for a closer look

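Among groups of 8 libraries, 130 groups of values were checked for 1 library far from the rest, and 18 stood out. Chance gives about 5% for independent groups of normally spread values. These groups are not independent, since many that stood out are liver transcripts of the same library, so the 18 cannot be set against that rate. Q20 male 2 stood apart for liver transcripts: it had 5.26 CPM of Alb, 0.497 of Ahsg, 0.213 of Fgb, 0.0474 of Hamp, 0.0711 of Abcb11, 0.118 of Mup20, 0.379 of Mup7 and 0.332 of Serpina1e, and a liver sum of 38.8 CPM. In Q92, male 4 was the highest for Mup7 (18.7 CPM) and Gm26917 (0.755 CPM), female 1 for Gm42418 (649 CPM), female 2 for Hist4h4 (0.586 CPM) and male 1 for Junb (61.3 CPM), while female 4 was the lowest for Mmgt2 (9.42 CPM). In Q20, male 4 was the highest for Rpl13 (178 CPM) and Gp1bb (10.8 CPM), and female 3 for the summed mitochondrial transcripts (98383 CPM).

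The difference between Q92 and Q20 was not the same at all ages for several genes, by the test of that change in edgeR. Age and the scheme of the library names cannot be told apart in it. At 6 months against 10 months the log2 change was 3.55 for Cps1, 1.86 for Gnmt, 1.40 for Tdo2, 2.91 for C3 and 1.89 for Apoh. It was 0.27 for Tef, -1.32 for Egr4, -0.32 for Atf5, -0.39 for Pdlim4, -0.41 for Csf2ra and -1.65 for Gm26917. At 6 months against 2 months it was 3.42 for Cps1, 1.46 for Gnmt and 4.04 for C3 (each adjusted p under 0.05).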

How the results depend on the processing

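In the Q92 to Q20 comparison 75 liver list, 63 liver-linked and 4 and 28 other genes were called, the last 2 numbers higher and lower. Leaving out each library gave 74 to 77, 59 to 65, 4 to 14 and 14 to 47. The liver calls were 46 and 27 in the 16 libraries alone, 47 and 30 without Q140 and wild type (added after seeing the data), 13 and 5 in males, and 0 and 0 with the liver sum as covariate or without 7 Q92 libraries of high liver sum. The last leaves 1 Q92 library, assumed to vary like the others. Other genes called higher were 51 without filter, 11 with the replicate block, 13 by DESeq2, 9 in the 16 libraries, 7 without wild type, 12 in females, 0 in males, 67, 77 and 62 on FPKM (pseudocounts 0.1 and 1, and no filter), 0 with the liver covariate, 19 without the choroid-bearing Q20 libraries and 9 with a G+C trend taken out. Other genes called lower were 74, 50 and 16 with the block, by DESeq2 and in the 16 libraries, 0 in males, 4, 4 and 4 on FPKM, 0 and 0 with the liver covariate or without the high libraries, 15 without Q140 and wild type, 57 without the choroid libraries and 11 with length taken out. Numbers were not shown to pair libraries: deviations of same-numbered libraries correlated from -0.122 to 0.201. Signs turned for Apoh (-0.13), C3 (-0.35) and Tdo2 (-0.19) with the liver covariate, and for Mup7 (-4.06), Mup20 (-2.80), Serpina1e (-4.15) and Snrnp35 (0.0173) without the high libraries. Against Q80, lower genes were 9, 8 and 47 without filter, without sex and with the block. At 2 months they were 2 and 8 without sex and with the block. The values taken as FPKM were not scaled by library size, so calls on them are not calls on a scaled measure. The causes were not tested. Genes under about 1 CPM rest on few reads.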
